A study of Mus musculus with 8 samples.

Results

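Sirtuins are NAD-dependent enzymes that remove acetyl and other acyl groups from lysines. Sirt1, Sirt6 and Sirt7 are mainly nuclear, Sirt2 is mainly cytosolic, and Sirt3, Sirt4 and Sirt5 are mitochondrial. Each reaction uses up a molecule of NAD and releases nicotinamide, which Nampt, the rate-limiting enzyme of NAD salvage, recycles. The family was examined here as the 7 sirtuin genes and Nampt, 8 genes taken by name and not by any measured value. Only probe sets whose annotation gives a single one of these genes were used. That left 5 of the 8 genes, Sirt1, Sirt3, Sirt4, Sirt5 and Sirt7, with 6 probe sets, among 17097 genes measured in all. Sirt2 shares its 1 listed probe set with Dvl3 and was not analysed here, and neither were Sirt6 and Nampt, which no probe set in the annotation used names. A further 2 probe sets shared by Sirt3 and Psmd13 and 1 shared by Sirt7 and Mafg were not used.

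The arrays measured RNA of dermal fibroblasts from female mice given a high fat diet (HFD, 4 arrays) or a normal diet (ND, also called control diet, 4 arrays) for 6 months from 2 months of age, and the labels state no genotype or strain. The cells had been sorted as positive for Pdgfra and CD34 and as negative for CD45, CD117, CD24, CD31 and EpCam, and RNA from 10000 of them was amplified for 20 cycles. The label of ND 4 excludes it by quality control, so HFD 1 to 4 were compared with ND 1 to 3, and ND 4 is given apart. Each specimen was taken as 1 mouse, although the labels do not say that every array came from a separate animal, and otherwise p-values would measure technical spread. The study asked how a high fat diet changes the transcriptome of these cells.

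The values are log2 expression, in which a difference of 1 is a doubling of signal, and the array number limits their precision. Cd34 averaged 12.10 ± 0.05 in HFD and 12.08 ± 0.02 in ND fibroblasts (SD, n = 4 and 3), while the probe set of Pdgfra was dim, at 6.27 ± 0.21 in HFD and 5.92 ± 0.12 in ND. Of the genes sorted against, Ptprc (4.03 in HFD, 4.08 in ND), Kit (4.25 in both), Cd24a (5.79 and 5.65) and Epcam (5.27 and 5.23) lay below the median gene of 6.77, and Pecam1 (7.002 and 6.81) lay slightly above it. Of 17 measured keratinocyte genes, 8 lay above the median gene. Their mean ran from 6.54 to 7.63 over the HFD arrays and from 6.50 to 6.85 over ND 1 to 3, and 16 of the 17 were higher in HFD on average. In ND 4 this mean was 7.12, within the HFD values. For Gapdh and Actb, measured by control probe sets, the 3′ signal less the 5′ signal is a sign of RNA quality. This 3′ minus 5′ measure ran from −0.44 to −0.375 in HFD and from −0.335 to −0.18 in ND 1 to 3, so it separated these arrays by diet. In ND 4 it was −0.37, next to the −0.375 of HFD 3. What part this measure or the keratinocyte RNA has in a change below was examined only through fits with either as a covariate, and the first cannot be told apart from diet. The mean of 10 fibroblast markers ran from 11.32 to 11.41 in HFD and from 11.39 to 11.44 in ND. Of these 10 markers, 2 passed the threshold given below, as did 1 of the 17 keratinocyte genes, where 5.35% of all genes passed. Marker lists of blood, endothelial, mural, adipocyte, Schwann and melanocyte cells had medians of change between −0.03 and 0.03. In bulk RNA, fewer cells expressing a gene and less RNA per cell cannot be told apart.

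None of the 5 measured sirtuin genes passed the threshold between the diets (limma, Benjamini-Hochberg adjusted p under 0.05 over all genes). Over all genes 914 passed, which is 5.35%, with 2.62% higher and 2.73% lower in HFD. At an unadjusted p under 0.05 there was 1 of the 5, Sirt7, where the share over all genes was 22.1%. The diets did not overlap in 1 of the 5, again Sirt7, where they did not overlap in 17.9% of all genes, so both counts are near the background. The changes ran from −0.10 for Sirt1 to 0.34 for Sirt7, with a median of 0.13 over the 5 genes and 0.02 over all genes. With each probe set tested separately, none of the 6 passed, where 3.56% of all 45037 did.

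**Figure D1:**
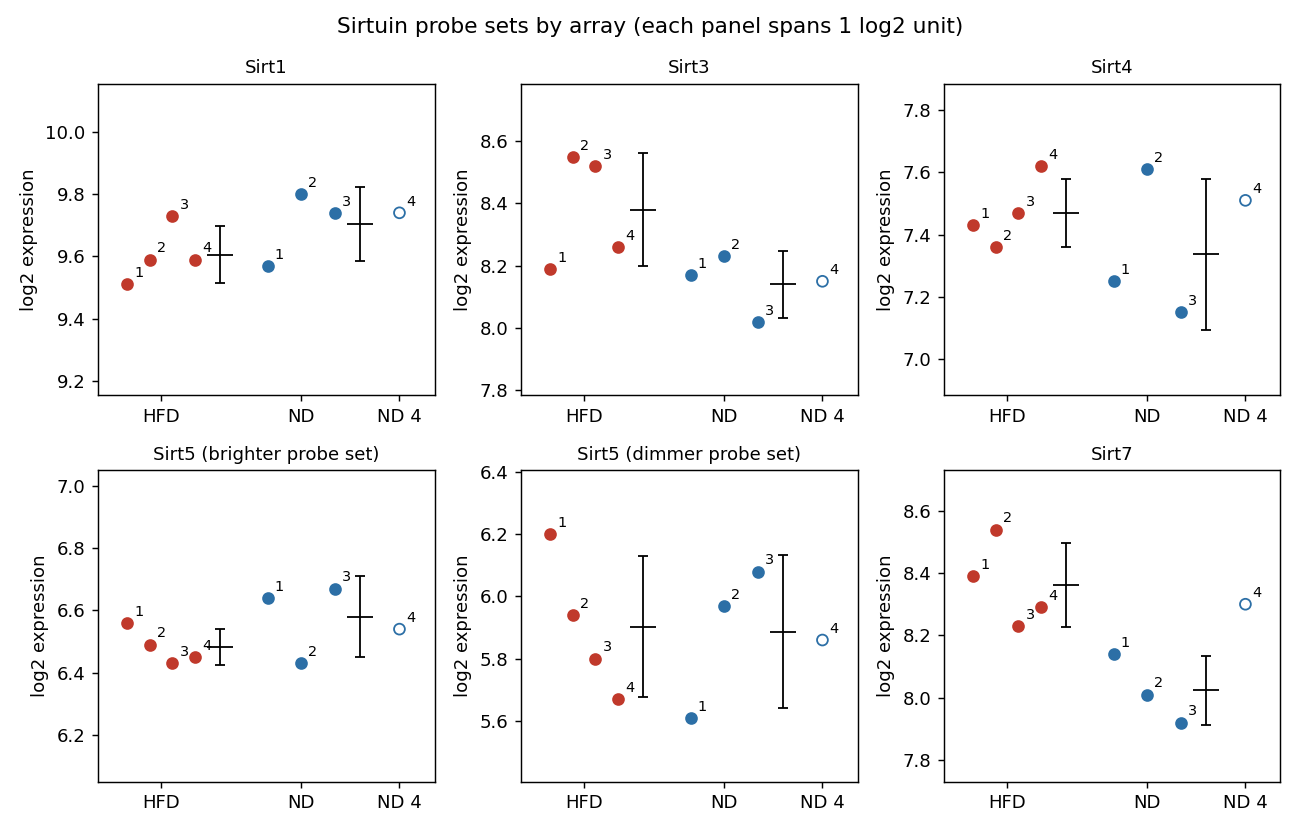
Log2 expression of the 6 sirtuin probe sets, 1 panel each, in HFD (red) and ND (blue) fibroblasts, with specimen numbers beside the points, mean ± SD bars in black, and ND 4, which the labels exclude, as an open circle. All 4 HFD points of Sirt7 (8.23 to 8.54) lie above ND 1 to 3 (7.92 to 8.14), and the diets overlap in the other panels.

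Motifs in the promoters of Sirt1, Sirt3 and Sirt5 are shown because transcripts of factors that bind such motifs were measured as well. These are the E-box CACGTG, read by the circadian proteins Clock and Npas2, the core CCGGAAG read by ETS factors such as Elk4, and the hexamer AGGTCA, part of the element read by Rora. The 250 bases before each start site of RefSeq (build GRCm38.p6) were searched on both strands, and the motifs found do not overlap each other. All 8 genes had an entry, 10 promoters in all. CACGTG occurred in Sirt1 alone of the family, at 2 places, and in 6.02% of all 32851 promoters. CCGGAAG occurred in Sirt3, among others of the family, and in 6.91% of all promoters. AGGTCA occurred in Nampt and Sirt5, and in 14% of all promoters. Windows of 30 bases of Sirt1, Sirt3 and Sirt5 follow, on the strand of the gene, with the motif in capitals (CTTCCGG and TGACCT are the motifs on the opposite strand).
Sirt1, chr10:63339133-63339162, minus strand: gcggcgcccggcCACGTGacccggcgtgtt
Sirt1, chr10:63339061-63339090, minus strand: ggaggggcgggtCACGTGacggggtttaaa
Sirt3, chr7:140882376-140882405, minus strand: gtgctcgctcaCTTCCGGcaccgcgggcgc
Sirt5, chr13:43365327-43365356, plus strand: gtaggtagttctTGACCTatttgggcagtg
Sirt5, chr13:43365359-43365388, plus strand: atgagccttggaAGGTCAcaaagacacatg
These matches of letters describe the windows and do not show that a factor binds there.

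Sirt1, the nuclear deacetylase of p53, FoxO factors and PGC-1α, had values of 9.51, 9.59, 9.73 and 9.59 in HFD 1 to 4, against 9.57, 9.80 and 9.74 in ND 1 to 3 and 9.74 in ND 4. The diets overlapped, with HFD 3 level with ND 3 and ND 1 within the HFD values. Sirt1 averaged 9.61 ± 0.09 in HFD and 9.70 ± 0.12 in ND (SD, n = 4 and 3), a log2 change of −0.10 (SE 0.09, limma adjusted p = 0.592). The 95% interval ran from −0.30 to 0.10, or 0.812 to 1.07-fold. Sirt1 kept a negative change in all 19 alternative settings, between −0.165 and −0.05. Settings that altered only the variance estimate, the value per gene or the dim genes could not move it, since Sirt1 has 1 probe set. The specimen block gave the same −0.093 as the fit without HFD 4. Within the diets the spread of Sirt1, an SD of 0.104, was close to the median gene's 0.107.

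Sirt7, a nuclear and nucleolar deacetylase that acts on histone H3 and on ribosomal RNA transcription, had values of 8.39, 8.54, 8.23 and 8.29 in HFD 1 to 4, against 8.14, 8.01 and 7.92 in ND 1 to 3. Every HFD array was above these 3 ND arrays, but ND 4 at 8.30 lay within the HFD values. Sirt7 averaged 8.36 ± 0.14 in HFD and 8.02 ± 0.11 in ND (SD, n = 4 and 3). The log2 change was 0.34 (SE 0.10), or 1.26-fold with a 95% interval of 1.08 to 1.48. That interval is for this gene alone, and after adjustment over all genes Sirt7 did not pass (limma adjusted p = 0.0791, unadjusted p = 0.00741). It passed in 1 of 19 alternatives, when the genes dimmer than the median gene were left out and 8554 genes were tested (adjusted p = 0.0483). The change was 0.28 (SE 0.13) with the keratinocyte mean as a covariate and 0.17 (SE 0.18) when the 3′ minus 5′ measure was one. With ND 4 among the ND arrays it was 0.27 (SE 0.11, limma adjusted p = 0.249), and in the fits that left out 1 of the 7 arrays it lay between 0.28 and 0.40, always positive and never past the threshold.

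Sirt3, the main deacetylase of mitochondria, had values of 8.19, 8.55, 8.52 and 8.26 in HFD 1 to 4, against 8.17, 8.23 and 8.02 in ND 1 to 3 and 8.15 in ND 4. HFD 2, HFD 3 and HFD 4 stood above all ND arrays, HFD 4 by little, whereas HFD 1 was below ND 2. Sirt3 averaged 8.38 ± 0.18 in HFD and 8.14 ± 0.11 in ND (SD, n = 4 and 3), a log2 change of 0.24 (SE 0.11, limma adjusted p = 0.248). Its 95% interval ran from −0.01 to 0.49, or 0.992 to 1.41-fold. The keratinocyte mean was 6.539, 7.635, 7.131 and 7.17 in HFD 1 to 4. Of the HFD arrays, HFD 1 was the lowest and HFD 2 the highest in both that mean and Sirt3. HFD 3 and HFD 4, close in the mean, were in the opposite order in Sirt3. The ND arrays did not share the order, since ND 2 was the lowest of ND 1 to 3 in the mean (6.495) and the highest in Sirt3. ND 4, at 7.124 in the mean, was next to HFD 3 there and below it in Sirt3. With the mean as a covariate the change of Sirt3 was 0.12 (SE 0.13). With the 3′ minus 5′ measure as a covariate it was 0.095 (SE 0.21). Sirt3 was positive in all 19 alternative settings, some of which could not move its change, as for Sirt1. Including ND 4 left the change of Sirt3 at 0.24.

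Sirt4, a mitochondrial lipoamidase and ADP-ribosyltransferase that restrains pyruvate and glutamate dehydrogenase, had values of 7.43, 7.36, 7.47 and 7.62 in HFD 1 to 4, against 7.25, 7.61 and 7.15 in ND 1 to 3 and 7.51 in ND 4. ND 2 was within 0.02 of the highest HFD array, and ND 1 and ND 3 were below all HFD arrays. Sirt4 averaged 7.47 ± 0.11 in HFD and 7.34 ± 0.24 in ND (SD, n = 4 and 3), a log2 change of 0.13 (SE 0.12, limma adjusted p = 0.575, 95% interval −0.13 to 0.40). The change was 0.27 without ND 2 and 0.04 without ND 3, and with the 3′ minus 5′ measure as a covariate it turned to −0.18 (SE 0.19).

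Sirt5, which removes succinyl, malonyl and glutaryl groups, had 2 probe sets. The brighter gave 6.56, 6.49, 6.43 and 6.45 in HFD 1 to 4, against 6.64, 6.43 and 6.67 in ND 1 to 3 and 6.54 in ND 4. The HFD values lay within the range of the ND values. Sirt5 averaged 6.48 ± 0.06 in HFD and 6.58 ± 0.13 in ND (SD, n = 4 and 3), a log2 change of −0.10 (SE 0.08, limma adjusted p = 0.55, 95% interval −0.28 to 0.09), and this probe set was dimmer than the median gene. The dimmer probe set gave 6.20, 5.94, 5.80 and 5.67 in HFD 1 to 4, against 5.61, 5.97 and 6.08 in ND 1 to 3, and 5.86 in ND 4. It overlapped as well, with a change of 0.02 (SE 0.14, limma adjusted p = 0.968 over all probe sets), opposite in sign to the brighter one. The 2 probe sets did not share an order of arrays, since HFD 1 was the highest of all on the dimmer probe set and not on the brighter.

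**Figure D2:**
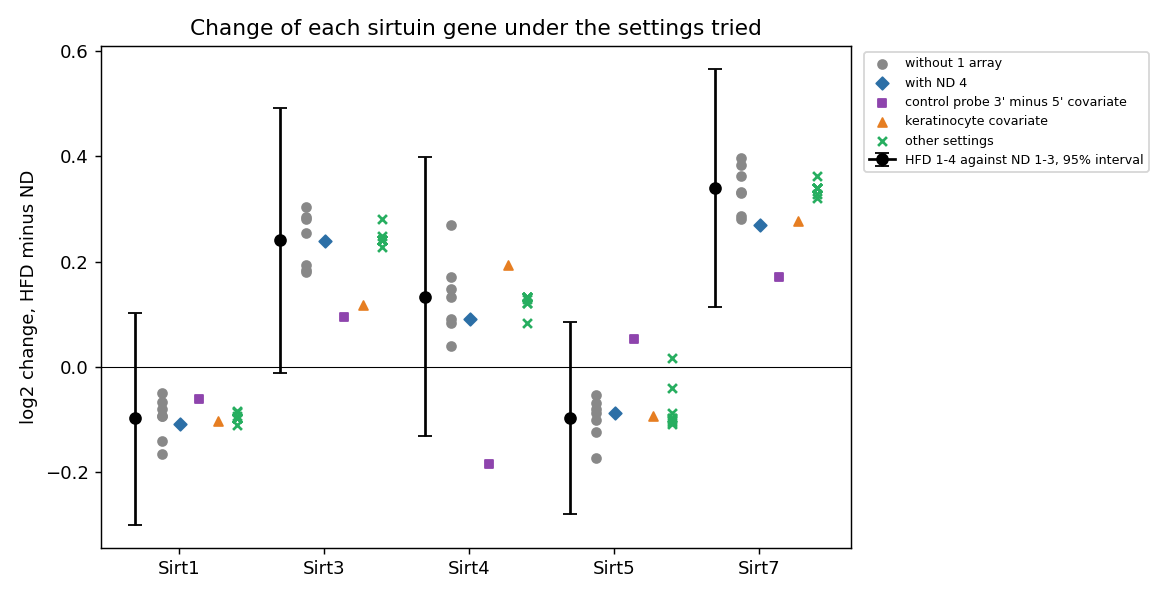
Log2 change (HFD minus ND) of the 5 measured sirtuin genes, with the 95% interval of the limma fit in black and the values under the alternative settings beside it. Sirt3 and Sirt7 stay above 0 and Sirt1 below 0 in every setting shown, although settings that alter only the variance estimate cannot move a point. Sirt4 and Sirt5 cross 0 when the 3′ minus 5′ measure is a covariate, and Sirt5 also with its most variable probe set.

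Over the 7 arrays compared, and with 1 probe set a gene, Sirt7 (0.62) and Sirt3 (0.53) had the widest ranges of the 5 measured genes, while the dimmer probe set of Sirt5 spanned 5.61 to 6.20. HFD 2 was the highest array and ND 3 the lowest for both. The genes nearest to Sirt7 in pattern, by root mean square difference over the 7 arrays after each gene was centred on its mean, were Ghdc (0.037), the splicing factor gene Ik (0.042) and Cript (0.044). None of these 3 passed the threshold (limma adjusted p = 0.109, 0.0604 and 0.0724). Nearest to Sirt3 were Washc1 (0.041), Cdrt4 (0.043) and Rexo1 (0.046), and none of these passed either (limma adjusted p = 0.213, 0.266 and 0.222). The near genes were chosen on the same arrays that were tested, so changes like those of Sirt7 and Sirt3 follow from the choice.

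Genes linked to the sirtuins were taken from 7 lists, which together held 136 measured genes. Of these, 8 rose and 2 fell in HFD, or 7.35% past the threshold, against the 5.35% of all genes. All 10 calls were lost in 7 of the 19 alternatives, which were the 3′ minus 5′ covariate, the keratinocyte covariate, the specimen block, the inclusion of ND 4, and the omission of ND 3, HFD 3 or HFD 4. Only 2 stayed with the mean of the probe sets of a gene (Parp10 and Aox1), and 2 without HFD 2 (Aox1 and Sdha). With each probe set tested separately, the brightest ones of Atp5a1, Ndufa9, Aldh2 and Prkaa2 did not pass (limma adjusted p = 0.0508, 0.0532, 0.0558 and 0.0508). The signs of the 10 changes were kept in every alternative that measured them, although alternatives of the variance estimate alone could not alter them. ND 4 lay within the HFD range in 7 of the 10 (Parp10, Parp14, Prkaa2, Sdha, Ndufa9, Aldh2 and Rora) and within the range of ND 1 to 3 in 1.

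**Figure D3:**
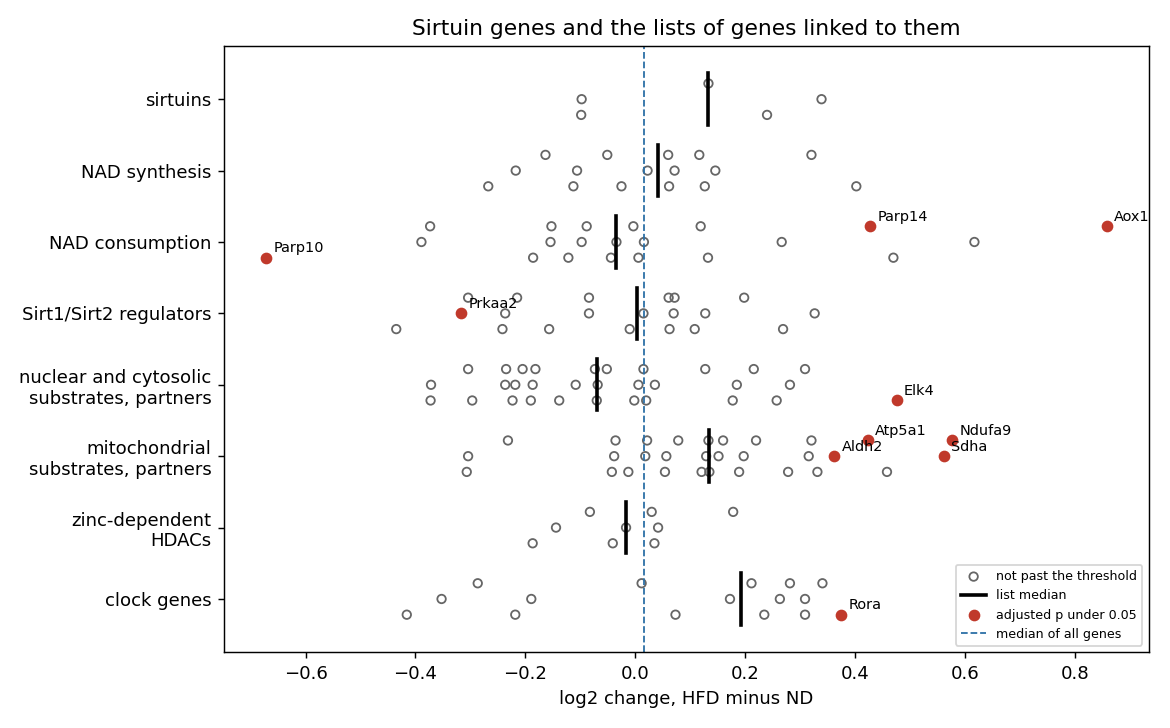
Log2 change (HFD minus ND) of each measured gene, for the sirtuins and 7 lists of genes linked to them, with filled points for genes past the threshold, black bars for list medians and a dashed line for the median of all genes (0.02). No sirtuin, NAD synthesis gene or zinc-dependent deacetylase is filled, and 4 mitochondrial substrates or partners are filled on the higher side.

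Mitochondrial proteins that sirtuins act on or bind formed a list of which 4 genes were called, beside 3 of 21 in the list of NAD consumption. Of 30 measured, 4 rose, 0 fell and 26 did not pass, where 2.62% of all genes rose. An unadjusted p under 0.05 in limma was found for 13 of the 30, and for 22.1% of all genes. The median change was 0.13 and 23 of the 30 were positive, beside 0.02 and 9615 of 17097 for all genes. Sdha, the catalytic subunit of succinate dehydrogenase and a Sirt3 substrate, had values of 10.20, 10.39, 10.31 and 10.32 in HFD 1 to 4, against 9.92, 9.68 and 9.63 in ND 1 to 3, with no overlap, while ND 4 at 10.28 lay among the HFD values. It rose by 0.56 (SE 0.09, limma adjusted p = 0.0224). Ndufa9, a complex I subunit that binds Sirt3, had values of 9.77, 9.70, 9.35 and 9.66 in HFD 1 to 4, against 9.19, 9.21 and 8.73 in ND 1 to 3 and 9.43 in ND 4. ND 4 lay within the HFD values here too. Ndufa9 averaged 9.62 ± 0.19 in HFD and 9.04 ± 0.27 in ND and rose by 0.58 (SE 0.14, adjusted p = 0.0448). Atp5a1, the alpha subunit of ATP synthase, had values of 10.96, 11.09, 11.02 and 11.13 in HFD 1 to 4, against 10.84, 10.64 and 10.40 in ND 1 to 3 and 10.84 in ND 4. Here ND 4 was level with ND 1 and below every HFD array. Atp5a1 averaged 11.05 ± 0.08 in HFD and 10.63 ± 0.22 in ND and rose by 0.42 (SE 0.10, adjusted p = 0.043). Aldh2, which oxidises acetaldehyde, had values of 11.62, 11.87, 11.78 and 11.86 in HFD 1 to 4, against 11.55, 11.47 and 11.24 in ND 1 to 3 and 11.75 in ND 4. HFD 1 exceeded ND 1 by little, and ND 4 lay within the HFD values. Aldh2 averaged 11.78 ± 0.12 in HFD and 11.42 ± 0.16 in ND and rose by 0.36 (SE 0.09, adjusted p = 0.0476). The 2 dimmer probe sets of Aldh2 differed by −0.09 and −0.03, and all 3 dimmer probe sets of Sdha were positive, between 0.09 and 0.67. With the 3′ minus 5′ measure as a covariate the changes were 0.44 for Sdha, 0.14 for Atp5a1, 0.10 for Aldh2 and 0.08 for Ndufa9.

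**Figure D4:**
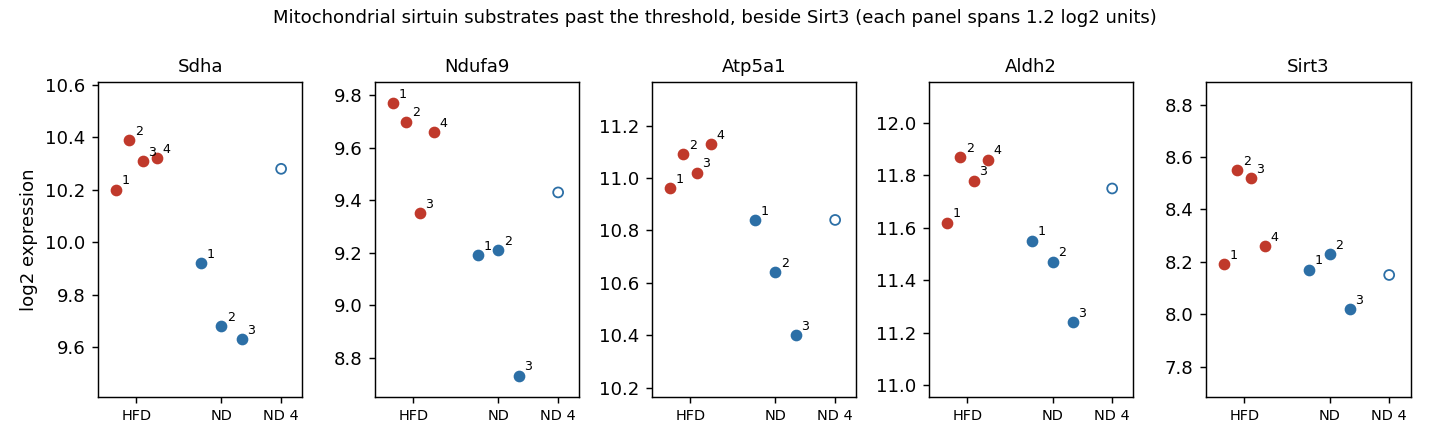
Log2 expression by array of the 4 mitochondrial substrates or partners past the threshold, beside Sirt3, in HFD (red) and ND (blue) fibroblasts, with specimen numbers, and ND 4 as an open circle. The diets do not overlap in Sdha, Ndufa9, Atp5a1 and Aldh2 when ND 4 is set aside, and they overlap in Sirt3, where ND 4 (8.15) lies among the other ND arrays. The 4 genes are shown because they passed on these same arrays, which favours separation, and 17.9% of all genes did not overlap.

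None of the 16 measured genes of NAD synthesis and salvage passed, and 3 were at an unadjusted p under 0.05 in limma. The shares over all genes were 5.35% and 22.1%. The median change of the list was 0.04. Nadk2, the mitochondrial NAD kinase, averaged 8.64 ± 0.29 in HFD and 8.24 ± 0.17 in ND (change 0.40, SE 0.15, limma adjusted p = 0.157), and its 3 dimmer probe sets were all negative. Slc25a51, the mitochondrial NAD carrier, averaged 9.06 ± 0.07 in HFD and 8.74 ± 0.18 in ND (change 0.32, SE 0.10, limma adjusted p = 0.092), and its values did not overlap between HFD and ND 1 to 3. Its 2 dimmer probe sets differed by 0.13 and 0.01, and the mean of all 3 by 0.15 (limma adjusted p = 0.351). The cytosolic NAD kinase Nadk differed by −0.22 (limma adjusted p = 0.218) and its dimmer probe set by 0.08, and the Nmnat1 gene, whose enzyme makes NAD in the nucleus, by −0.16 (limma adjusted p = 0.259).

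Among 21 measured genes of NAD and nicotinamide consumption, 2 rose, 1 fell and 18 did not pass, with a median of −0.03, where 5.35% of all genes passed. At an unadjusted p under 0.05 in limma there were 7 of the 21, where the share over all genes was 22.1%. Aox1, the aldehyde oxidase that also oxidises methylated nicotinamide, had values of 6.92, 7.59, 7.23 and 6.96 in HFD 1 to 4, against 6.43, 6.44 and 6.08 in ND 1 to 3, and ND 4 at 6.55 was below every HFD array. It rose by 0.86 (SE 0.16, limma adjusted p = 0.0262), the largest change among the 10 genes called. Parp10, a mono-ADP-ribosyltransferase, had values of 9.52, 9.36, 9.28 and 9.02 in HFD 1 to 4, against 9.82, 9.95 and 10.13 in ND 1 to 3, with ND 4 at 9.37 among the HFD values. It fell by 0.67 on the log2 scale (SE 0.12, limma adjusted p = 0.0253). Parp14, of the same enzyme class, had values of 9.44, 9.31, 9.60 and 9.32 in HFD 1 to 4, against 8.99, 9.11 and 8.87 in ND 1 to 3 and 9.44 in ND 4. The diets did not overlap unless ND 4 was counted. Parp14 rose by 0.43 (SE 0.10, adjusted p = 0.0428), while its dimmer probe set differed by 0.06. The tankyrase gene Tnks2 differed by 0.47 (limma adjusted p = 0.0872), and its 2 dimmer probe sets by −0.16 and −0.23.

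Of 20 measured regulators of Sirt1 and Sirt2, 0 rose, 1 fell and 19 did not pass, with a median of 0.003, where 5.35% of all genes passed. An unadjusted p under 0.05 in limma was found for 8 of the 20, and for 22.1% of all genes. Prkaa2, a catalytic subunit of the AMP-activated kinase, had values of 5.72, 5.77, 5.58 and 5.81 in HFD 1 to 4, against 5.97, 6.07 and 6.07 in ND 1 to 3 and 5.77 in ND 4. All 4 HFD arrays were below ND 1 to 3, and so was ND 4. Prkaa2 averaged 5.72 ± 0.10 in HFD and 6.04 ± 0.06 in ND and fell by 0.32 on the log2 scale (SE 0.07, limma adjusted p = 0.0386). Its probe set was dimmer than the median gene, and its still dimmer probe sets differed by −0.25 and 0.01. Foxo3, both a target of Sirt1 and an activator of its gene, differed by −0.30 (limma adjusted p = 0.0684), and its 2 other probe sets, nearly as bright, by −0.31 and −0.23. The Sirt1 kinase genes Dyrk1a and Cdk5 differed by −0.43 (limma adjusted p = 0.0668) and 0.33 (limma adjusted p = 0.104). Of the 2 dimmer probe sets of Dyrk1a, 1 went the opposite way (0.32) and the other did not (−0.24), and those of Cdk5 differed by 0.05 and 0.01.

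Of 31 measured nuclear and cytosolic substrates and partners, 1 rose, 0 fell and 30 did not pass, with a median of −0.07, where 5.35% of all genes passed. An unadjusted p under 0.05 in limma was found for 10 of the 31, and for 22.1% of all genes. The gene that rose was Elk4, an ETS factor known in human cancer cells to recruit SIRT7 to promoters. Elk4 had values of 8.69, 8.55, 8.57 and 8.76 in HFD 1 to 4, against 8.18, 8.36 and 7.96 in ND 1 to 3 and 8.42 in ND 4, so every HFD array was above all 4 ND arrays. It averaged 8.64 ± 0.10 in HFD and 8.17 ± 0.20 in ND, a change of 0.48 (SE 0.11, limma adjusted p = 0.0397), but a probe set of nearly the same brightness differed by −0.14 (SE 0.10). Ubtf, a factor of ribosomal RNA transcription that works with Sirt7, differed by −0.30 (limma adjusted p = 0.0955) and its dimmer probe set by −0.11. Rela, the NF-kappaB subunit that Sirt1 deacetylates, differed by 0.26 (limma adjusted p = 0.0973).

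Among 16 measured clock genes, 1 rose, 0 fell and 15 did not pass, with a median of 0.19, where 5.35% of all genes passed. At an unadjusted p under 0.05 in limma there were 9 of the 16, where the share over all genes was 22.1%. Rora, a nuclear receptor of the clock, had values of 11.35, 11.42, 11.60 and 11.65 in HFD 1 to 4, against 11.19, 11.18 and 11.02 in ND 1 to 3 and 11.46 in ND 4. ND 4 was again within the HFD values. Rora averaged 11.51 ± 0.14 in HFD and 11.13 ± 0.10 in ND and rose by 0.38 (SE 0.09, limma adjusted p = 0.0412). Its 4 dimmer probe sets disagreed in sign, between −0.28 and 0.46. Npas2, which can take the place of Clock, differed by −0.42 (limma adjusted p = 0.0724), Per1 by 0.31 (limma adjusted p = 0.112) and Hlf by 0.26 (limma adjusted p = 0.116). The dimmer probe sets of Npas2 and Hlf differed by −0.19 and −0.02. The zinc-dependent histone deacetylases, which remove acetyl groups without NAD, gave 0 of 9 past the threshold and 0 at an unadjusted p under 0.05 (limma). The shares over all genes were 5.35% and 22.1%. Changes of these deacetylase genes ran from −0.19 for Hdac6 to 0.18 for Hdac10. Between these lay Hdac7 at −0.14 (limma adjusted p = 0.477), with a probe set nearly as bright at 0.06, and Hdac1 at −0.08 (limma adjusted p = 0.698).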

How the data were processed

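For 45141 probe sets on 8 arrays the authors deposited log2 values, with RMA and the affy package named in the submitters' processing notes. Their versions are not given in the sources used here. Array quartiles lie within 0.04 of each other, so a change in total RNA would not be visible, and detection calls were not used. Signal after 20 cycles of amplification may not follow RNA amount linearly.

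Probe sets with 1 gene symbol (28898) were named from the platform annotation, and 551 with several were not used. Their Entrez identifiers matched a table of assembly GRCm38.p6 in 28689 cases. The brightest probe set (mean of the 7 arrays) stood for its gene, leaving 17097 genes. HFD 1 to 4 and ND 1 to 3 were fitted in limma 3.58.1 (R 4.3.3, lmFit and eBayes with trend, 10.3 total degrees of freedom), with Benjamini-Hochberg adjustment across all genes. Python 3.11.15 and matplotlib 3.10.9 were used for the figures. The fit was tested on simulated data. Some promoter windows are not reported here.

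The members, lists and tests were chosen with earlier results of these data known. All members were named. From each list every gene past the threshold was named, filled up to 4 by smallest p as values only. For the 2 members of widest range the 3 genes nearest in pattern were named. Alternatives were the arrays used, scaling, variance model, value per gene, dim genes, covariates and threshold. The smallest SD of the difference between any pair of arrays was 0.165, so none was a duplicate.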

Additional observations from a re-analysis of the deposited data

Results flagged for a closer look

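Among 40 genes and probe sets checked for an HFD array far from the other HFD arrays, 2 were found, where chance gives about 1 in 20. Tnks2 was at 9.6 in HFD 4, against 9.35, 9.38 and 9.35 in HFD 1 to 3, and all 4 were above ND 1 to 3 (8.57 to 9.23). Cdk5 was at 9.4 in HFD 3, against 9.18, 9.15 and 9.15 in the other HFD arrays. No sirtuin probe set had such an array.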

How the results depend on the processing

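The count of sirtuin genes past the threshold was 0 in the limma fit of the 7 arrays, and 1 (Sirt7) without genes dimmer than the median gene, 1 at an adjusted p under 0.1 and 1 at an unadjusted p under 0.05. It was 0 in every fit that left out 1 array. Of 94 values of the 5 genes under alternatives, 3 changed sign: Sirt4 (−0.184) and Sirt5 (0.053) with the 3′ minus 5′ covariate, and Sirt5 with its most variable probe set (0.016). Of 510 values of 27 other named genes, 3 changed sign, with the 3′ minus 5′ covariate: Nmnat1 (0.003), Tnks2 (−0.099) and Hdac1 (0.011). The cause was not tested.

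The count over all genes, 914, was 6 with ND 4, 6 to 1072 without 1 array (11 without ND 3, 6 without HFD 3, 9 without HFD 4, 210 without HFD 2, 485 without ND 2), 400 with the mean of probe sets, 1387 of 8554 brighter genes, 20 with the keratinocyte covariate and 0 with the 3′ minus 5′ covariate in limma (604 at an unadjusted p under 0.05). It was 1947 at an adjusted p under 0.1 and 3777 at an unadjusted p under 0.05. With the specimen number as a replicate block it was 1, and 0 sirtuins passed. Arrays of the same number did not deviate together (r over genes of −0.182, −0.291 and −0.053), so the numbers were not taken as pairs.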

Other observations

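ND 4, the array that the labels exclude, lay within the range of the HFD arrays for 502 of the 914 genes past the threshold without it, beyond the HFD range for 44, and within the range of ND 1 to 3 for 59. The same counts over all genes are not given here. Over all probe sets, the SD of the difference between ND 4 and each HFD array lay between 0.18 and 0.205. Against ND 1 to 3 it lay between 0.216 and 0.3. Among the sirtuins, ND 4 lay among the HFD values for Sirt7 (8.30) and among the other ND values for Sirt3 (8.15).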
